A study of Mus musculus with 6 samples.

Results

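The genes described here serve the uptake of dietary fat and its packaging into chylomicrons in intestinal epithelial cells. They are the apolipoprotein genes Apoa1, Apoa4, Apob and Apoc3, the microsomal triglyceride transfer protein gene Mttp, the fatty acid binding protein genes Fabp1 and Fabp2, the diacylglycerol acyltransferase genes Dgat1 and Dgat2, and the fatty acid transporter gene Cd36. The members are all probe sets that the platform annotation pairs with 1 of these 10 symbols and no other gene, which gave 21 of 45037 non-control probe sets. The 6 samples are intestinal epithelial cells from mice of strain C57BL/6, each measured on its own 3′ Affymetrix array. The deleted group has 3 arrays of mice that carry floxed casp8 and are positive for villinCre, a Cre recombinase driven by the promoter of the epithelial gene villin. The control group has 3 arrays of mice that carry floxed casp8 and are negative for villinCre, so that floxed casp8 is shared by all 6 arrays and the transgene itself is not matched by a Cre control. The labels give neither age nor sex nor the segment of intestine. Caspase-8 triggers apoptosis below death receptors and restrains necroptosis.

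Enterocytes take up fatty acids and monoacylglycerol from the gut lumen, bind them to small cytosolic proteins and rebuild triglyceride at the endoplasmic reticulum. The acyltransferases DGAT1 and DGAT2 carry out the last step of that synthesis. MTP, encoded by Mttp, then loads lipid onto apolipoprotein B as it is made, and the particle gains apolipoproteins such as A-I, A-IV and C-III before it leaves for the lymph. Absorptive enterocytes of the small intestine are known for very high levels of these transcripts.

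In the deleted cells the probe sets of the fat-packaging genes stood a little above the controls, with no single one past the threshold. Of the 21 probe sets, 0 passed an adjusted p of 0.05 (limma, Benjamini-Hochberg over 45037 probe sets, n = 3 per group). Across all probe sets 143 passed, a background of 0.318%. With array weights 2 of the 21 passed, where 2.62% of all probe sets did, and with a trended, robust prior 2 passed, where 0.537% did. At an unadjusted p under 0.05, 7 of the 21 were higher and 0 lower, where 6.75% of all probe sets were higher, and 16.2% of those with a mean log2 value of at least 11. The log2 difference, deleted minus control, was positive in 20 of 21, against 52.4% of all probe sets. Its median was 0.31, with a range from -0.24 to 0.64, against a median of 0.012 over the whole table. In 13 of 21 every deleted array lay above every control array, where the background was 10.1%, and in 0 of 21 the deleted arrays lay below, where the background was 9.75%. After a repeated quantile normalization the deleted arrays lay above in 8 of 21, with the same background of 10.1%. The 21 probe sets read 10 genes, up to 4 for 1 gene, and are not independent. By the probe set with the highest mean of each gene, the deleted arrays lay above in 7 of 10 in the deposited values. The share over all 18193 genes was 11.5%. Most of the 21 probe sets lie high on the scale. Among the 1014 probe sets with a mean of at least 11, the deleted arrays lay above all controls in 25.6%, the difference was positive in 58.3%, and its median was 0.061. Since the genes were chosen with earlier results of these data known, the counts describe the list and test nothing about it.

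**Figure D1:**
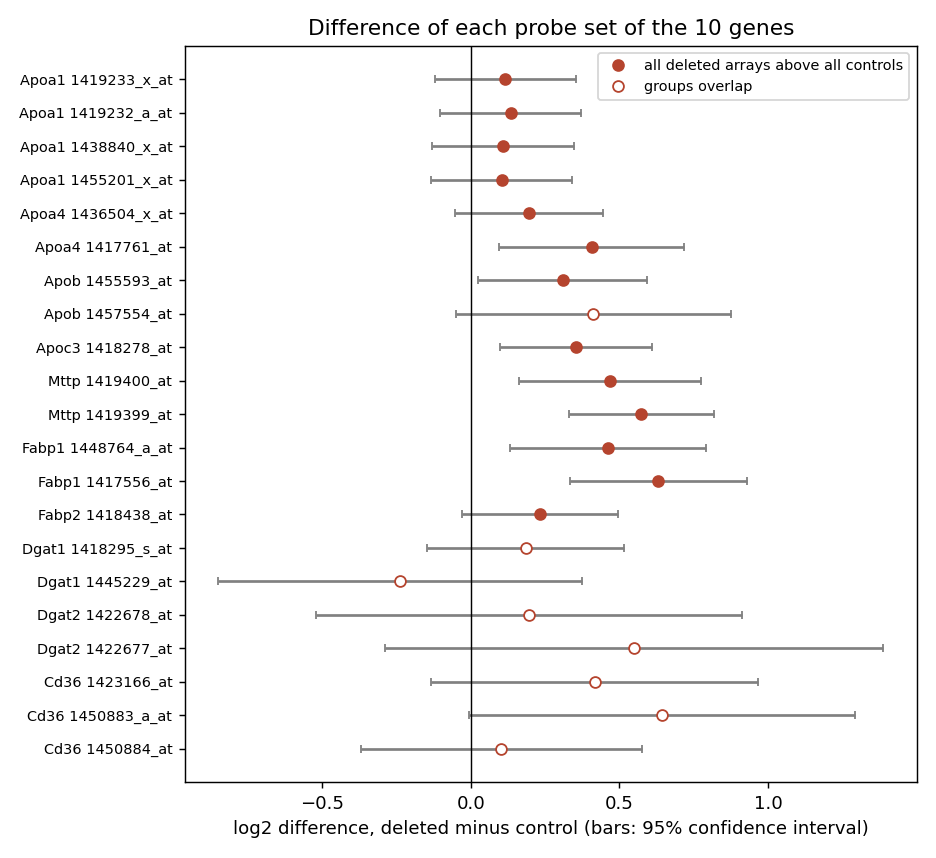
Log2 difference, deleted minus control, of each of the 21 probe sets (x axis), with the 95% confidence interval of the limma fit as bars, 3 arrays per group. The filled points are the 13 probe sets in which all deleted arrays lay above all control arrays in the deposited values, against 8 after repeated quantile normalization. They are those of Apoa1, Apoa4, Apoc3, Mttp, Fabp1 and Fabp2 and 1 of Apob, while those of Dgat1, Dgat2 and Cd36 are open.

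The arrays differ in ways that touch these values. The array's Gapdh controls read the 3′ and the 5′ end of the transcript, and the gap between them widens with RNA degradation. This Gapdh difference was 0.21 to 0.29 on the deleted arrays, and 0.68, 0.93 and 0.22 on control replicates 1, 2 and 3. Control replicate 2 was the lowest of the 6 arrays for 17 of the 21 probe sets, and for 8 of the 10 leading ones, a leading probe set being the one with the highest mean of its gene. Control replicate 3, with a Gapdh difference like that of the deleted arrays, lay below all 3 deleted arrays in 17 of 21. Of these, 13 are the probe sets in which all deleted arrays lay above all controls, where this holds by definition. No share over all probe sets was computed for this count. The part of RNA integrity in the results was not tested beyond these values and the covariate fit given below. Correlations over all probe sets were 0.984 to 0.994 within the deleted group, 0.988 to 0.993 within controls and 0.977 to 0.991 between groups. Casp8, read by 1 probe set, stood at 9.27, 9.56 and 10.40 on the deleted arrays and 10.53, 9.74 and 10.24 on the control arrays. Its difference of -0.43 did not pass (limma, adjusted p = 0.57), and since the labels do not name the removed exons it cannot check the genotypes.

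Apoa1, Apoc3 and Apoa4 are direct neighbours among the protein-coding genes of mouse chromosome 9, with Sik3 and Apoa5 on either side. The bases just before the start sites of Apoa1, Apoa4, Mttp, Fabp1 and Fabp2 are shown because in these genes every probe set lay higher on all deleted arrays than on all controls. The sequences are from RefSeq, build GRCm38.p6, in which 7 of the 10 genes had an entry, and each runs 5′ to 3′ over the 250 bases that end at the base before the listed start. Capitals mark exact matches, on either strand, to CAAAGTNCA (a form of the site of HNF4, a nuclear receptor of enterocytes), AGGTCA (the core bound by many nuclear receptors), TATAAA (the TATA box) or GATAA (the core of GATA factor sites).
Apoa1 (chr9:46228380-46228629, plus strand): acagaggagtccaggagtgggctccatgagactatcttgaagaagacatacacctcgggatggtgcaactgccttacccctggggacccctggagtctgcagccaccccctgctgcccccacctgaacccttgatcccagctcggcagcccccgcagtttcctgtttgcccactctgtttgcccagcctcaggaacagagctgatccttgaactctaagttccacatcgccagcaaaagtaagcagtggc
Apoa4 (chr9:46240594-46240843, plus strand): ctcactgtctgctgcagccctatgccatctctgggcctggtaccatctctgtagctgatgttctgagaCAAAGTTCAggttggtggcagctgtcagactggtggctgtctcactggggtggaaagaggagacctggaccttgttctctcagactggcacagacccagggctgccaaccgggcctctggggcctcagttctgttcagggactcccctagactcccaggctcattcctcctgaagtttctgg
Mttp (chr3:138143419-138143668, minus strand): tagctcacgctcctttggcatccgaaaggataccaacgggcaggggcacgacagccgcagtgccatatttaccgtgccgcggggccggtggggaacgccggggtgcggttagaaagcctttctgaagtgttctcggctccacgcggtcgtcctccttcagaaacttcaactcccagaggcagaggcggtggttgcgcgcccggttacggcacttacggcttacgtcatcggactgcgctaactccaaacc
Fabp1 (chr6:71199629-71199878, plus strand): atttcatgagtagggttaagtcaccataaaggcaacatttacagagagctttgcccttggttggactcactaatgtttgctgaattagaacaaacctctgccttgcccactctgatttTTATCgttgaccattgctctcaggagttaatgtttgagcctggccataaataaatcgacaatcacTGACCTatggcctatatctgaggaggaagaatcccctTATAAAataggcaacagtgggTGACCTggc
Fabp2 (chr3:122894822-122895071, plus strand): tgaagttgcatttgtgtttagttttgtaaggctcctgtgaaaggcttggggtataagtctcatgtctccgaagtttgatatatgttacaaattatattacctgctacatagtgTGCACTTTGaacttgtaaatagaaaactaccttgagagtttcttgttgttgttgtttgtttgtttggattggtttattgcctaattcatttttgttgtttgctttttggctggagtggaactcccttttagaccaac
These motifs were picked with the sequences in view, so a match is a description. Among the sequences shown, CAAAGTNCA was found in Apoa4, beginning 182 bases before the start, and in Fabp2, beginning 137 bases before it, and in 1.2% of 32817 promoter windows of the same length. TATAAA was found in Fabp1, beginning 30 bases before the start, and in 12.4% of all windows. AGGTCA was found in Fabp1 in 2 places, against 14.0% of all windows, and GATAA in Fabp1, against 22.6%. The windows of Apob and Cd36 are not described, since their listed starts lie inside the annotated gene. The windows of Apoa1 and Mttp hold none of these 4 strings, which says only that these letters are not in these 250 bases.

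Mttp had the smallest adjusted p of the 10 genes. Its probe set 1419399_at read 11.92, 11.86 and 12.00 on the deleted arrays, against 11.37, 11.34 and 11.34 on the control arrays. All deleted arrays lay above all controls, and the gap between the groups was wider than the spread inside either. The means were 11.93 ± 0.07 and 11.35 ± 0.02 (SD, n = 3 each), a log2 difference of 0.57 (SE 0.11, 95% confidence interval 0.33 to 0.82) or 1.49-fold, which did not pass (limma, adjusted p = 0.0875). The leading probe set, 1419400_at, read 12.04, 12.36 and 12.43 in deleted cells and 11.81, 11.81 and 11.81 in control cells. The groups again did not overlap, though deleted replicate 1 stood nearer to the controls than the other deleted arrays did. This difference was 0.47 (SE 0.13, adjusted p = 0.198). In both probe sets 2 control arrays hold the same deposited value, which also occurs in 8.07% of all probe sets. Against control replicate 3 alone the differences were 0.58 and 0.46, and with the Gapdh difference as a covariate 0.58 and 0.44.

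Fabp1 encodes the liver-type fatty acid binding protein, which carries long-chain fatty acids in the cytosol of enterocytes and hepatocytes. Its probe set 1417556_at read 13.12, 13.10 and 13.33 on the deleted arrays, against 12.62, 12.39 and 12.65 on the controls. The groups were apart, and control replicate 2 was the lowest array. The difference was 0.63 (SE 0.13, 95% confidence interval 0.33 to 0.93), or 1.55-fold, and did not pass (limma, adjusted p = 0.109). The leading probe set, 1448764_a_at, read 13.06, 13.35 and 13.44 in deleted cells and 12.91, 12.65 and 12.90 in control cells. Here too the groups did not overlap, with deleted replicate 1 only a little above control replicate 1. Its difference was 0.46 (SE 0.14, adjusted p = 0.226). Against control replicate 3 alone the differences of the 2 probe sets were 0.53 and 0.38.

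Fabp2 encodes the intestinal fatty acid binding protein, the second such protein of the enterocyte cytosol, and has 1 probe set. It read 13.93, 13.94 and 13.94 on the deleted arrays, against 13.82, 13.58 and 13.71 on the controls. The deleted arrays were all higher and nearly equal, with an SD of 0.0073, while the controls had an SD of 0.12. They differed by 0.23 (SE 0.11), with a 95% confidence interval of -0.03 to 0.49, short of the threshold (limma, adjusted p = 0.406). Its ranks among the 45037 probe sets were 4, 5 and 3 on the deleted arrays and 5, 13 and 8 on the controls. The values thus lie near the upper end of the measuring range. After a repeated quantile normalization the difference was 0.15 (limma, adjusted p = 0.609).

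**Figure D2:**
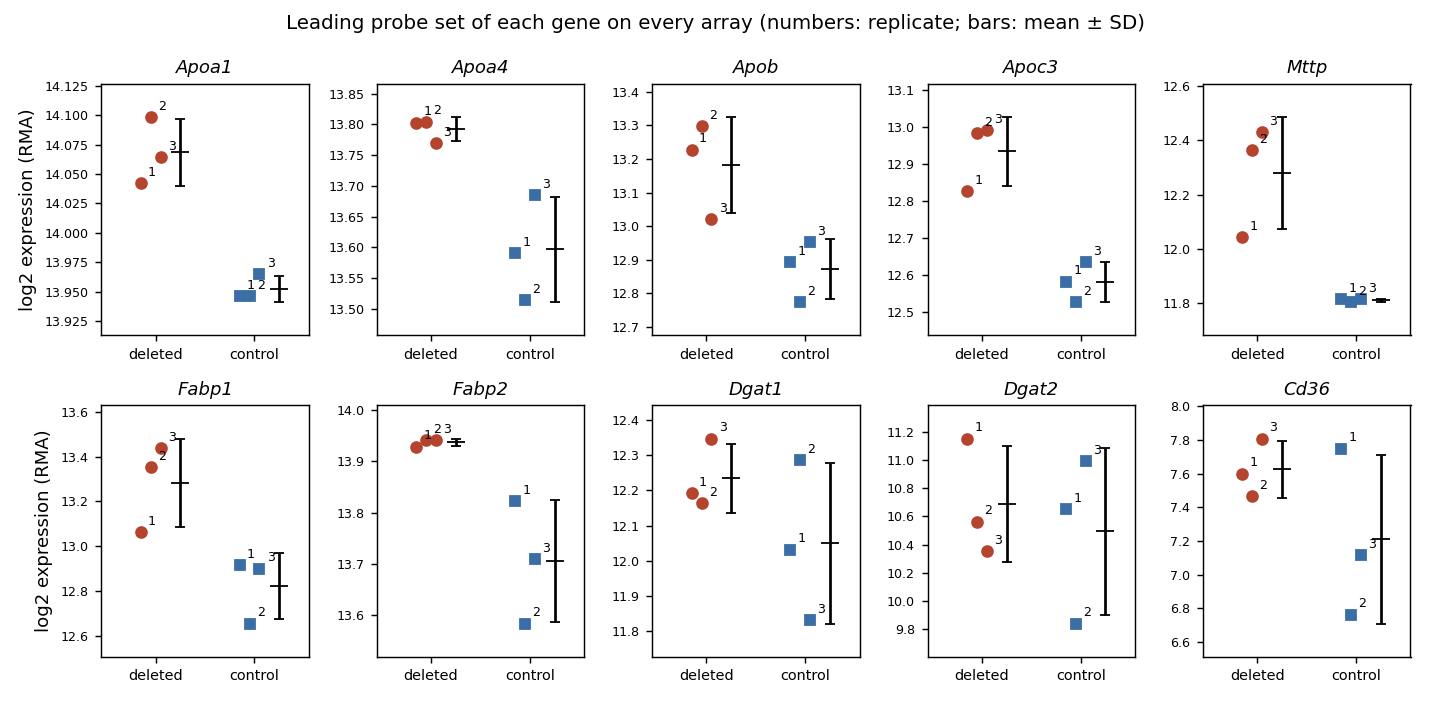
Deposited log2 expression (y axis, a separate scale for each gene) of the leading probe set of each of the 10 genes on the 3 deleted arrays (circles) and the 3 control arrays (squares), numbered by replicate, with mean ± SD as bars. In 7 panels every circle lies above every square, and in Dgat1, Dgat2 and Cd36 the groups overlap. Control replicate 2 is the lowest point in 8 panels and ties with control replicate 1 as the lowest in Apoa1.

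Apoa4 encodes apolipoprotein A-IV, which enterocytes secrete on chylomicrons and make in larger amounts during fat absorption. Its probe set 1417761_at read 13.66, 13.69 and 13.61 in deleted cells and 13.26, 13.03 and 13.46 in control cells. The deleted arrays lay close together above the more widely spread controls. The difference was 0.41 (SE 0.13, 95% confidence interval 0.10 to 0.72), or 1.33-fold, and did not pass (limma, adjusted p = 0.248). It was 0.20 against control replicate 3 alone and 0.20 with the Gapdh covariate, which is less than with all controls. The leading probe set, 1436504_x_at, of a type that may bind related sequences, stood at 0.20 (SE 0.11, adjusted p = 0.462), also with the groups apart.

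Apoc3 encodes apolipoprotein C-III, which slows the clearance of triglyceride-rich particles by inhibiting lipoprotein lipase. Its probe set read 12.83, 12.98 and 12.99 on the deleted arrays, against 12.58, 12.53 and 12.63 on the controls. No deleted array reached down to the controls. The difference was 0.35 (SE 0.11, 95% confidence interval 0.10 to 0.61), or 1.28-fold (limma, adjusted p = 0.23), and 0.30 against control replicate 3 alone.

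Apob encodes the structural protein of chylomicrons, of which each particle holds a single copy. Its leading probe set, 1455593_at, read 13.23, 13.30 and 13.02 in deleted cells, against 12.89, 12.77 and 12.95 in control cells. The groups were apart, with deleted replicate 3 only just above control replicate 3. The difference was 0.31 (SE 0.12, 95% confidence interval 0.02 to 0.59) and did not pass (limma, adjusted p = 0.319). The probe set 1457554_at read 10.06, 10.39 and 9.58 in deleted cells and 9.61, 9.47 and 9.71 in control cells. Deleted replicate 3 lay among the controls here, and the difference of 0.41 had an SE of 0.20 (adjusted p = 0.406). It was 0.22 without deleted replicate 2 and 0.63 without deleted replicate 3.

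Apoa1 encodes apolipoprotein A-I, the main protein of high-density lipoprotein, which the intestine also puts on new chylomicrons. Its leading probe set, 1419233_x_at, read 14.04, 14.10 and 14.06 on the deleted arrays, against 13.95, 13.95 and 13.96 on the control arrays. Each of these values was the highest of its array, so this probe set sits at the upper end of the measuring range throughout. The difference was 0.12 (SE 0.10, 95% confidence interval -0.12 to 0.35) and did not pass (limma, adjusted p = 0.652). The other 3 probe sets differed by 0.10 to 0.13, and in all 4 the groups did not overlap. A repeated quantile normalization, which gives equal values to equal ranks, set the difference of the leading probe set to 0 and that of 1455201_x_at to -0.0049, and left the others at 0.04 and 0.02. How far saturation of the brightest probes compresses differences was not tested, and the table holds no saturation calls.

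**Figure D3:**
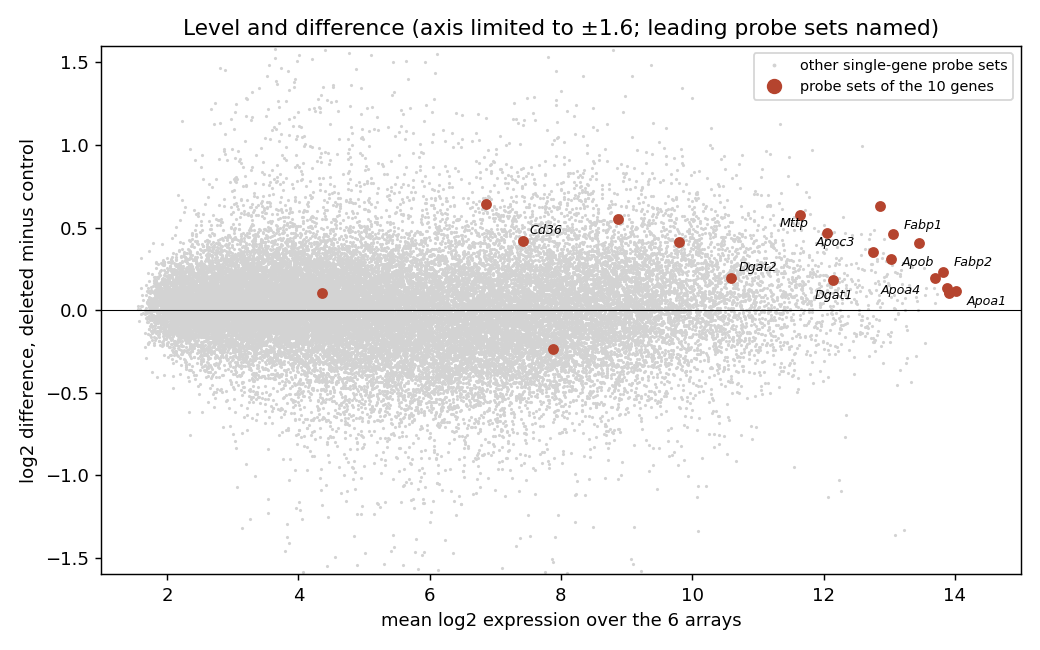
Log2 difference, deleted minus control (y axis, limited to ±1.6), against the mean log2 expression over the 6 arrays (x axis) for the single-gene probe sets of the table (grey) and the 21 probe sets described (red, leading ones named). The red points lie above 0 except for 1 Dgat1 probe set at -0.24, and at the right edge they approach 0, with the 4 Apoa1 probe sets between 0.10 and 0.13.

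Dgat1 and Dgat2, which carry out the last step of triglyceride synthesis, showed no separation between the groups. Dgat1 by its leading probe set, 1418295_s_at, read 12.19, 12.16 and 12.35 in deleted cells and 12.03, 12.29 and 11.83 in control cells. Control replicate 2 lay above 2 of the deleted arrays, and the difference of 0.18 (SE 0.14, limma adjusted p = 0.602) was within the spread of the controls. It was 0.08 without control replicate 3, 0.30 without control replicate 2, and 0.40 both against control replicate 3 alone and with the Gapdh covariate. The probe set 1445229_at read 7.62, 7.59 and 8.06 in deleted cells, against 7.87, 8.59 and 7.53 in control cells. Its difference was -0.24 (SE 0.27, 95% confidence interval -0.85 to 0.37), the sole negative one among the 21, and it was 0.06 without control replicate 2.

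Dgat2 varied most among the arrays. Its leading probe set, 1422678_at, read 11.15, 10.56 and 10.36 on the deleted arrays and 10.65, 9.84 and 10.99 on the controls, so that the ranges overlapped, with deleted replicate 1 the highest array and control replicate 2 the lowest. The difference was 0.20 (SE 0.31, 95% confidence interval -0.52 to 0.91, limma adjusted p = 0.813). It turned to -0.13 without control replicate 2, -0.03 without deleted replicate 1, -0.30 against control replicate 3 alone and -0.31 with the Gapdh covariate. The probe set 1422677_at stood at 0.55 (SE 0.36, adjusted p = 0.54), at 0.17 without control replicate 2, at 0.89 without control replicate 3, and at -0.13 against control replicate 3 alone. The intervals leave room for a difference of either sign.

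Cd36 encodes a membrane protein that takes up long-chain fatty acids in enterocytes, and also in capillary endothelium, adipocytes and macrophages. Its leading probe set, 1423166_at, read 7.60, 7.47 and 7.81 in deleted cells, against 7.75, 6.76 and 7.11 in control cells. Control replicate 1 lay inside the deleted range and the other controls below it. The difference was 0.42 (SE 0.24, 95% confidence interval -0.13 to 0.96) and did not pass (limma, adjusted p = 0.476). It was 0.19 without control replicate 2, 0.69 without control replicate 1 and 0.095 with array weights. The probe set 1450883_a_at stood at 0.64 (SE 0.28, adjusted p = 0.359), the largest difference of the 21 in the fit of all arrays. It was 0.42 without control replicate 2, 0.94 without control replicate 1 and 0.29 with array weights. The dim 1450884_at stood at 0.10 (SE 0.21, adjusted p = 0.857).

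Markers of other cells that make Cd36 or the apolipoproteins were set beside these values. The 10 endothelial genes stood on average 2.34 above the control mean on deleted replicate 1, against -0.01 and 0.03 on the other deleted arrays and -0.23 to 0.17 on the controls. Cd36 by its leading probe set on deleted replicate 1 lay between the other deleted arrays. Of the endothelial genes 0 passed and 9 were positive. Of 5 adipocyte genes 0 passed, with deleted replicate 1 at 0.95 and the other arrays at -0.14 to 0.07. That value came from the lipoprotein lipase gene Lpl, named after its values were seen, which read 8.01 on deleted replicate 1 and 3.41 to 4.28 on the other arrays. Of 9 macrophage genes 1 passed, where 0.44% of all leading probe sets did, and the list's median was -0.12. The gene that passed was the mannose receptor gene Mrc1, which rose by 1.06 (limma, adjusted p = 0.0224). Of 8 hepatocyte genes 0 passed and 6 were positive, and the list's median level was 3.93. The albumin gene Alb averaged 4.41 ± 0.15 in deleted cells and 4.18 ± 0.15 in control cells (SD, n = 3 each), where the array medians were 4.85 to 4.91. Ttr was brighter, at 8.28 in deleted cells and 7.79 in control cells, with all deleted arrays above all controls. Its difference was 0.49 (limma, adjusted p = 0.194). Tat stood at -0.47, with all deleted arrays below all controls. The hepatocyte list stood at 0.02 to 0.26 on the deleted arrays and -0.06 to 0.08 on the controls.

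Enterocyte markers, listed together with the general epithelial genes Epcam and Cdh1, were high. The means of the 14 genes lay between 11.66 and 11.70 on the deleted arrays and between 11.46 and 11.60 on the control arrays. Of these 14 genes 0 passed and 12 were positive, with a median difference of 0.17. The deleted arrays lay above all controls in 6, such as the villin gene Vil1 and the alkaline phosphatase gene Alpi, and below in 1. That gene, Mep1a, had the largest difference of the list in either direction, at -0.87 (limma, adjusted p = 0.156). Genes of secretory cells, which share the epithelium with enterocytes, were lower. All 6 Paneth cell genes passed as lower, with a median of -1.97. All 8 goblet cell genes were negative, with a median of -0.82. Of these, 3 passed, and in 7 the deleted arrays lay below all controls. Over all leading probe sets 0.44% passed and 53.9% were positive. The deleted arrays lay above all controls in 11.5% of them and below in 11.2%. Among the 1014 probe sets with a mean of at least 11, they lay above in 260 and below in 151. The median levels of the enterocyte, goblet and Paneth lists were 12.02, 12.15 and 11.84. In whole-epithelium RNA, fewer cells of a type and less RNA per cell cannot be told apart, and the same holds for more. Genes of the duodenum and jejunum, where most fat is absorbed, were positive in 7 of 7 with a median of 0.32, and those of the ileum in 1 of 6 with a median of -0.36, with 0 passing in either list. On the arrays the duodenal and jejunal list stood at 0.30 to 0.40 in deleted cells, and at -0.16, -0.16 and 0.32 in control replicates 1, 2 and 3. The ileal list stood at -0.72, -0.22 and -0.50 in deleted replicates 1, 2 and 3. In control replicates 1, 2 and 3 it stood at -0.07, -0.12 and 0.19. Of 5 colon genes 0 passed and 2 were positive. The colon list stood at 0.19, 0.11 and -0.09 in deleted replicates 1, 2 and 3. In control replicates 1, 2 and 3 it stood at 0.73, -0.29 and -0.44. Its gene Car1, named after its values were seen, read 9.84 on control replicate 1, 7.39 on deleted replicate 1 and 4.05 to 5.53 elsewhere. The part of cell makeup and of gut region in the fat-packaging values was not tested.

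As a mean over the 10 leading probe sets, each set against its control mean, the deleted arrays stood at 0.28, 0.29 and 0.31 and the controls at 0.09, -0.14 and 0.05. The deleted arrays were thus close to one another, and control replicate 2 was the lowest. Among 2014 other genes that spanned at least 1 log2 unit over the 6 arrays, the patterns most like this mean were those of Tlr4 (r = 0.995), Ms4a10 (0.995), Tlcd2 (0.991), Slc11a1 (0.986) and Ankrd37 (0.985). These are correlations over 6 arrays that also share the group difference and the low control replicate 2, picked as the highest of many. Tlr4 read 4.33 to 4.41 in deleted cells and 3.23 to 3.78 in control cells, below the array medians of 4.85 to 4.91. Slc11a1 read 4.11 to 5.26 over the 6 arrays, near those medians. Tlcd2 differed most, at 9.44, 9.63 and 9.81 in deleted cells and 8.61, 7.81 and 8.59 in control cells, a difference of 1.29 (limma, adjusted p = 0.0747).

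The wider pathway was read from 5 lists of genes, each gene by its leading probe set. Of 86 listed genes 80 had a single-gene probe set, and 0 of these 80 passed. The share of leading probe sets that passed was 0.44% over 18193 genes. In the lists the difference was positive in 58 genes, against 53.9% of all leading probe sets, and its median was 0.21, against 0.022 over all leading probe sets. The deleted arrays lay above all controls in 29 of the 80 and below them in 3, where the shares over all leading probe sets were 11.5% and 11.2%. The median level of the 80 was 8.74, against 5.97 over all leading probe sets. Lying above all controls was more frequent among bright probe sets, as given above, and no share was computed at the level of the lists. The lists too were chosen with earlier results of these data known, so these counts describe them.

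In uptake and fatty acid activation 9 of 13 genes were positive, with a median of 0.18, and in 3 the deleted arrays lay above all controls. Acsl3, an enzyme that activates long-chain fatty acids and is known from lipid droplets, read 10.29, 10.40 and 9.76 in deleted cells and 8.90, 8.80 and 9.44 in control cells. No array of one group reached the other, the difference was 1.10 (SE 0.22, limma adjusted p = 0.108), and its other probe sets stood at 1.24 and 0.65. Acsl5, another such enzyme of the intestine, stood at 0.31 (SE 0.10, adjusted p = 0.253).

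The list for the synthesis of triglyceride, phospholipid and sterol ester had 19 genes, of which 17 had a single-gene probe set. The sterol ester synthesis genes Soat1 and Soat2 had none. The list also holds the lipid breakdown genes Pnpla2, Lipe and Ces1d and the droplet coat genes Plin2 and Plin3. Of the 17 genes 13 were positive, with a median of 0.22. In 8 of them the deleted arrays lay above all controls and in 2 below. Plin3, a coat protein of lipid droplets, read 10.99, 11.03 and 11.21 in deleted cells and 10.49, 10.55 and 10.53 in control cells. The group means were 0.55 apart, without overlap (SE 0.11, limma adjusted p = 0.109). Gpam, the mitochondrial acyltransferase that starts glycerolipid synthesis, stood at -0.65 (SE 0.17, adjusted p = 0.182), and its second probe set stood at -0.13.

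In lipoprotein assembly and secretion 15 of 18 genes were positive, with a median of 0.31, and in 9 of 18 the deleted arrays lay above all controls. Apobec1, the deaminase that edits Apob mRNA to the short intestinal form, read 9.98, 10.14 and 10.06 in deleted cells and 8.76, 8.88 and 9.60 in control cells. Control replicate 3 stood nearest to the deleted arrays, and the difference of 0.98 (SE 0.21) did not pass (limma, adjusted p = 0.121). Tm6sf2, which helps to load lipid onto the particle, read 11.59, 11.57 and 11.70 in deleted cells and 11.14, 11.07 and 11.18 in control cells, a difference of 0.49 (SE 0.11, adjusted p = 0.126).

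The list of other apolipoproteins and sterol exporters, which also holds Lcat and Pltp, had a median level of 5.34. Of its 14 genes 11 were positive, with a median of 0.19, and in 4 the deleted arrays lay above all controls. Among these 4, Lcat, Apom and Apoa2 averaged 4.59, 5.28 and 5.38 over all arrays, where the array medians were 4.85 to 4.91. Apoc2, the cofactor that activates lipoprotein lipase, read 12.97, 13.06 and 13.23 in deleted cells, against 11.87, 12.06 and 12.35 in control cells. The groups were apart, with a difference of 0.99 (SE 0.15), or 1.99-fold, just outside the threshold (limma, adjusted p = 0.0515). Apom stood at 0.48 (SE 0.16, adjusted p = 0.247). Apoa5, the neighbour of Apoa4 on chromosome 9 and chosen after its values were seen, averaged 4.89 ± 0.22 in deleted cells and 4.81 ± 0.15 in control cells (SD, n = 3 each), a difference of 0.08.

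Of the transcription factors of enterocyte lipid genes 10 of 18 were positive, with a median of 0.04, and the deleted arrays lay above all controls in 5 and below in 1. Gata4, a factor of the proximal small intestine, read 7.56, 7.44 and 7.58 in deleted cells and 6.89, 6.93 and 6.96 in control cells. Without overlap, the means were 0.60 apart (SE 0.11, limma adjusted p = 0.0792), and its second probe set stood at 0.55. Creb3l3, a membrane-bound factor that acts on apolipoprotein genes in liver and intestine, stood at 0.57 (SE 0.16, adjusted p = 0.188). Hnf4a, chosen after its values were seen because its type of site was searched for, averaged 11.82 ± 0.21 in deleted cells and 11.77 ± 0.06 in control cells, a difference of 0.04 (adjusted p = 0.913).

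**Figure D4:**
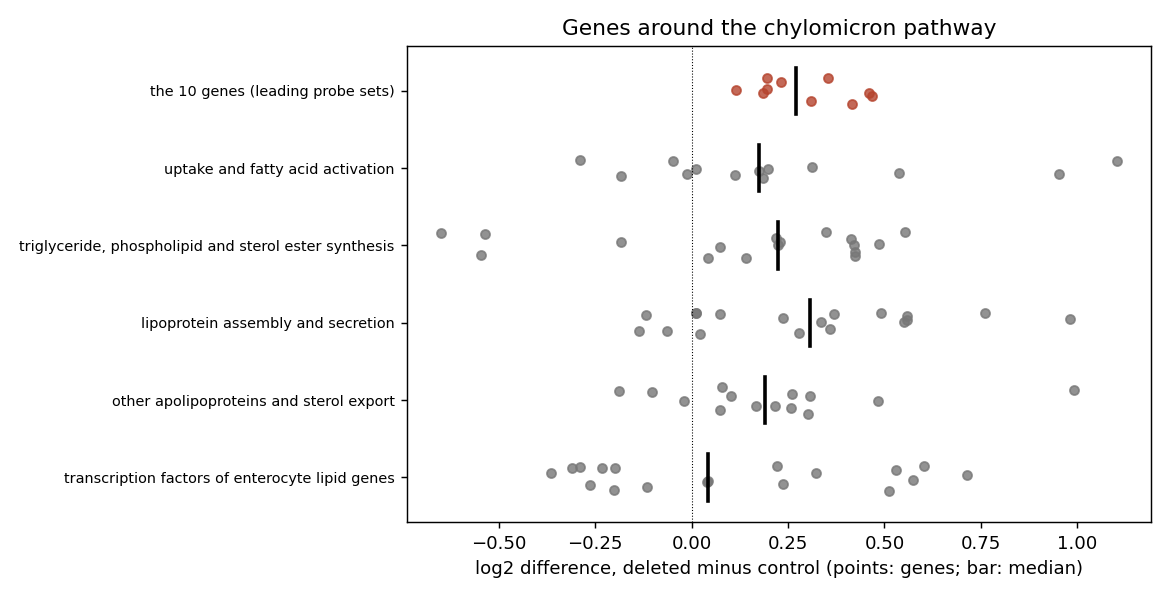
Log2 difference, deleted minus control (x axis), of each gene's leading probe set in the 10 genes described (red) and in the 5 lists around them (grey), with the list's median as a bar. The red points lie between 0.12 and 0.47, with a median of 0.27, while each grey list holds genes on both sides of 0, with medians from 0.04 to 0.31.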

How the data were processed

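Biotinylated cRNA from total RNA was hybridised to 3′ arrays, per the labels' protocols. What the authors deposited are log2 values per probe set from RMA, per the submitters' processing notes, with no version or settings stated there. RMA equalises the arrays at the level of single probes and understates changes of dim probe sets. The deposited values per probe set are not equal in distribution. Their maxima were 14.042, 14.098 and 14.064 on deleted replicates 1, 2 and 3, and 13.946, 13.946 and 13.965 on control replicates 1, 2 and 3. The table holds no detection calls, and precision is limited by the small number of arrays.

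Of 45101 probe sets, 64 controls were left out, and the platform annotation, which can be old, pairs 34945 of the rest with 1 gene. Groups and replicate numbers come from the titles, which call the replicates biological. Each probe set was fitted with limma 3.58.1 under R 4.3.3, with group as the single factor, two-sided, adjusted by Benjamini-Hochberg over all 45037 probe sets. The fit was tested on simulated data.

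The members, lists and tests were chosen with earlier results of these data known. All member probe sets are described. Of each pathway list the genes that passed were to be named, or else the 2 with the smallest p, and the 5 genes most like the members' mean pattern. Same-numbered arrays had correlations of 0.07, 0.08 and -0.06 between their deviations from the group means, so the numbers were not taken to pair them. Alternatives changed the block, probe sets, prior, weights, scaling, RNA integrity covariate and arrays.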

Additional observations from a re-analysis of the deposited data

How the results depend on the processing

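Across 18 settings and 21 probe sets, 350 differences were recomputed, of which 329 kept their direction and their side of the threshold, 4 passed it, 16 changed sign and 1 became 0. Mttp 1419399_at and Fabp1 1417556_at passed with a trended, robust prior (adjusted p = 0.0339 and 0.0443 by limma) and with array weights (0.032 and 0.0413). Each of these settings therefore called 2 of the 21, where the share called over all probe sets was 0.537% with the prior and 2.62% with the weights, and the other settings called 0. Over all 16 settings that held them, their adjusted p ran from 0.032 to 0.841 and from 0.0413 to 0.841. With the Gapdh covariate the differences that changed sign were Dgat2 at -0.31 and -0.11, Dgat1 1445229_at at 0.26 and Cd36 1450884_at at -0.0033. Without both controls of high Gapdh difference they were Dgat2 at -0.30 and -0.13 and Dgat1 at 0.23. With array weights they were Dgat2 1422678_at at -0.012 and Cd36 1450884_at at -0.023. By the mean of its probe sets Dgat1 stood at -0.027, and Apoa1 1455201_x_at stood at -0.0049 after repeated quantile normalization. When 1 array was left out, Dgat2 1422678_at ran from -0.13 to 0.44, Dgat1 1445229_at from -0.47 to 0.058 and Cd36 1450884_at from -0.043 to 0.27, and 8 of the 21 differences moved by over 1.5 times.

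The count of probe sets with all deleted arrays above all controls was 8 after repeated quantile normalization, which sets equal ranks equal. It was 13 to 15 when 1 array was left out, but leaving out an array cannot lower this count from 13. These settings were added after the data had been seen. The count over the whole table, 143, was 277 without dim probe sets, 242 with the trended prior, 1180 with array weights, 26 with the Gapdh covariate and 1 without both controls of high Gapdh difference, which leaves 1 control array assumed to vary like the rest. It ran from 18 to 190 when 1 array was left out. With the replicate block it was 112, and 0 of the 21 passed. The cause of these shifts was not tested. Median centring turned no difference.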
